A study of Mus musculus with 4 samples.

Results

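Transcripts of 10 genes that the tumour suppressor p53 activates in growth arrest, apoptosis and stress were examined in mouse muscle without MG56, the product of Hhatl, which sits in the membrane of the sarcoplasmic reticulum. The genes, Cdkn1a, Gadd45a, Ccng1, Plk2, Mdm2, Bbc3, Bax, Trp53inp1, Zmat3 and Sesn2, were taken as a list by symbol. Of these 10, 9 had at least 1 probe set (a group of short probes that reads 1 transcript) annotated to that symbol alone, out of 18193 such genes on the array, and Bax was not analysed here. The groups were tibialis anterior (TA, a fast muscle of the lower leg) of MG56-knockout mice, TA of wild-type mice, heart of MG56-knockout mice and heart of wild-type mice, all at postnatal day 9 on the C57BL/6J background. For each tissue the RNA of 3 knockout mice was pooled, as was that of wild-type mice in a number that the sources used here do not give, so each of the 4 groups is 1 array. How the allele was made is also not given in those sources. There is no replicate error and no test, and each ratio compares pools of RNA.

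In an unstressed cell p53 is kept low by the ubiquitin ligase MDM2, whose own gene p53 activates, which closes a negative feedback loop. After DNA damage or other stress, p53 accumulates and binds a response element made of tandem decamers near its target genes. The best known of them, Cdkn1a, encodes p21, an inhibitor of cyclin-dependent kinases that halts the cell cycle and through the pocket proteins and the DREAM complex silences genes of cell division. In skeletal muscle, Cdkn1a also marks the exit of myoblasts from the cell cycle, and Cdkn1a and Gadd45a are induced in wasting muscle. Several genes of the list answer to other regulators too. ATF4 and CHOP, the transcription factors of the integrated stress response, are known to act on Sesn2, Gadd45a and Bbc3.

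Response elements are shown first because they separate the genes with the clearest p53 site at their start from the others. RefSeq promoter windows (build GRCm38.p6, 250 bases before to 50 bases after a transcript start) existed for 8 of the 10 genes, 11 windows in all. In each, the best stretch of 20 bases was found for the p53 consensus, 2 decamers of 10 bases each without a spacer. The median over all windows was 15 matching positions. In the lines that follow, 5' to 3' on the strand of the gene, capitals mark bases that match the consensus and lower case those that do not.
Cdkn1a: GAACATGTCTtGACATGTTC
Ccng1: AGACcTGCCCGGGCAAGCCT
Bbc3: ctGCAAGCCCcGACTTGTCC
Gadd45a: AAACTAcCTaGAGCTgGCTC
Bax: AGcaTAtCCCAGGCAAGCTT

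The sites of Cdkn1a and Ccng1 matched at 19 of 20 positions, a score reached in 0.0883% of 32851 windows. That of Cdkn1a lies at chr17:29090928-29090947, 51 bases before the upstream start of the gene, and that of Ccng1 (minus strand) at chr11:40755462-40755481, 195 bases before its start. The sites of Bbc3, Gadd45a and Bax matched at 17 positions, reached or passed in 6.29% of windows, so their scores are less rare. Mdm2, Sesn2, Plk2 and the second start of Cdkn1a had 15 matches, which 76.6% of windows reached, and the other windows of Bbc3 had 15 and 14. The core of the ATF4 and CHOP element, TGATGNAA on either strand, was in 0 of the 11 windows and in 3.97% of all windows. A match describes the letters only and is no measure of binding, and elements outside these windows were not searched.

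The upstream Cdkn1a window, chr17:29090729-29091028 on the plus strand, is printed whole because Cdkn1a had the largest knockout ratio of the list, with the p53 site in capitals.
Cdkn1a window: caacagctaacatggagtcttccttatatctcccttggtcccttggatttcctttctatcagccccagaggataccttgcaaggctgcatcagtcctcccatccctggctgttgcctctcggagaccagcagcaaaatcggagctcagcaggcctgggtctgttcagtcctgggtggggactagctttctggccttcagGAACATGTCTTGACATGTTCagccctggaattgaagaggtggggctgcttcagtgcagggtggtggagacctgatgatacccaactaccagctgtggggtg

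**Figure D1:**
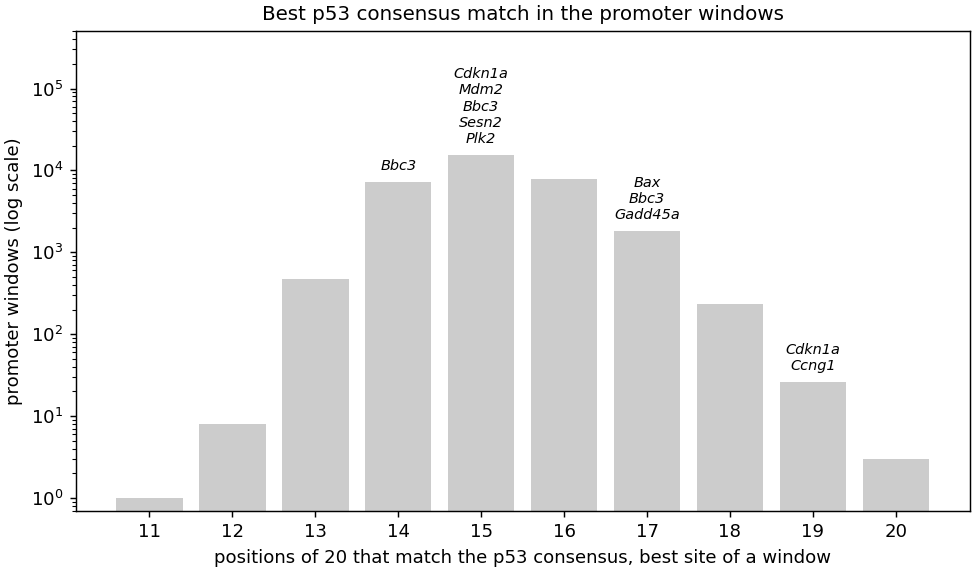
Number of promoter windows (log scale) by how many of 20 positions of their best site match the p53 consensus, with the windows of the listed genes named above their bar. Cdkn1a and Ccng1 stand at 19 matches, where few windows lie, and the other windows of the list at 14, 15 or 17.

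The arrays were on a common scale as deposited. Trimmed means of the MAS5 signals lay between 496.4 and 496.8, and 49.5% to 50.7% of the probe sets of an array reached the floor of 101.3, the median of all signals. Neither value measures RNA quality, and the share is tied to the floor by its definition. Signals under the floor were raised to it. A gene was measured in a comparison when at least 1 of its arrays reached the floor, which left 11528 genes in TA and 11452 in heart. Hhatl, the targeted gene, read by a single probe set that may or may not lie in the deleted stretch, had a signal of 1078 in knockout TA and 5491 in wild-type TA, and of 880 in knockout heart and 2110 in wild-type heart. Defining markers fitted the labelled tissues, since the summed signal of 9 fast skeletal muscle genes was 327222 and 363322 in knockout and wild-type TA, against 24791 and 23689 in knockout and wild-type heart. The summed signal of 9 cardiac genes was 44196 and 55454 in knockout and wild-type TA, against 313292 and 307231 in knockout and wild-type heart, with 5 and 4 of the 9 reaching the floor in knockout and wild-type TA. Over 9 lists of markers of muscle, fibroblasts, endothelium, leukocytes, red blood cells, adipocytes, Schwann cells and myoblasts, 0 of 41 measured genes in TA and 0 of 33 in heart differed by 1.5-fold between genotypes. Over all measured genes 4.2% were higher and 4.44% lower by that fold in TA, and 2.67% and 4.19% in heart. Red blood cells in TA, and adipocytes, Schwann cells and myoblasts in heart, had 1 measured marker each. These counts cannot show whether the share of each cell type was the same. The pools differed in sex-linked transcripts, of which 3 of 4 measured were 1.5-fold higher in both knockouts. Of these, all on the Y chromosome, Uty was 2.71-fold higher in TA and 2.29-fold in heart, Eif2s3y 1.78-fold and 2.21-fold, and Kdm5d 1.57-fold and 1.64-fold. Uty in heart had a log2 ratio of only 0.026 under a floor at the 75th percentile. The log2 ratio of Xist was -0.52 in TA and -0.38 in heart. The part of these differences in the results was not tested.

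In knockout TA the list split. Cdkn1a and Gadd45a were more than 1.5-fold higher than in wild-type TA and Bbc3 more than 1.5-fold lower, while 6 genes lay between. In all, 2 of 9 passed upwards and 1 downwards, and the median log2 ratio was 0.18, against -0.01 over all measured genes. Across the array, 4.2% of genes passed 1.5-fold upwards and 4.44% downwards. Among the 7351 genes whose mean signal over both TA arrays was at least 4 times the floor, these shares were 3.75% and 3.13%, and of the 7 listed genes above that level 2 were higher and 0 lower. In knockout heart 0 of 9 genes were 1.5-fold higher and 1, again Bbc3, was lower, with a median of -0.13 against -0.002 over all genes. The background there was 2.67% higher and 4.19% lower, or 1.7% and 2.24% among the 7484 brighter genes. All 4 arrest genes (Cdkn1a, Gadd45a, Ccng1 and Plk2) were below 0 in heart, with log2 ratios of -0.25 to -0.11. So were 5755 of all 11452 measured genes, so the sign of 4 small ratios says little.

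**Figure D2:**
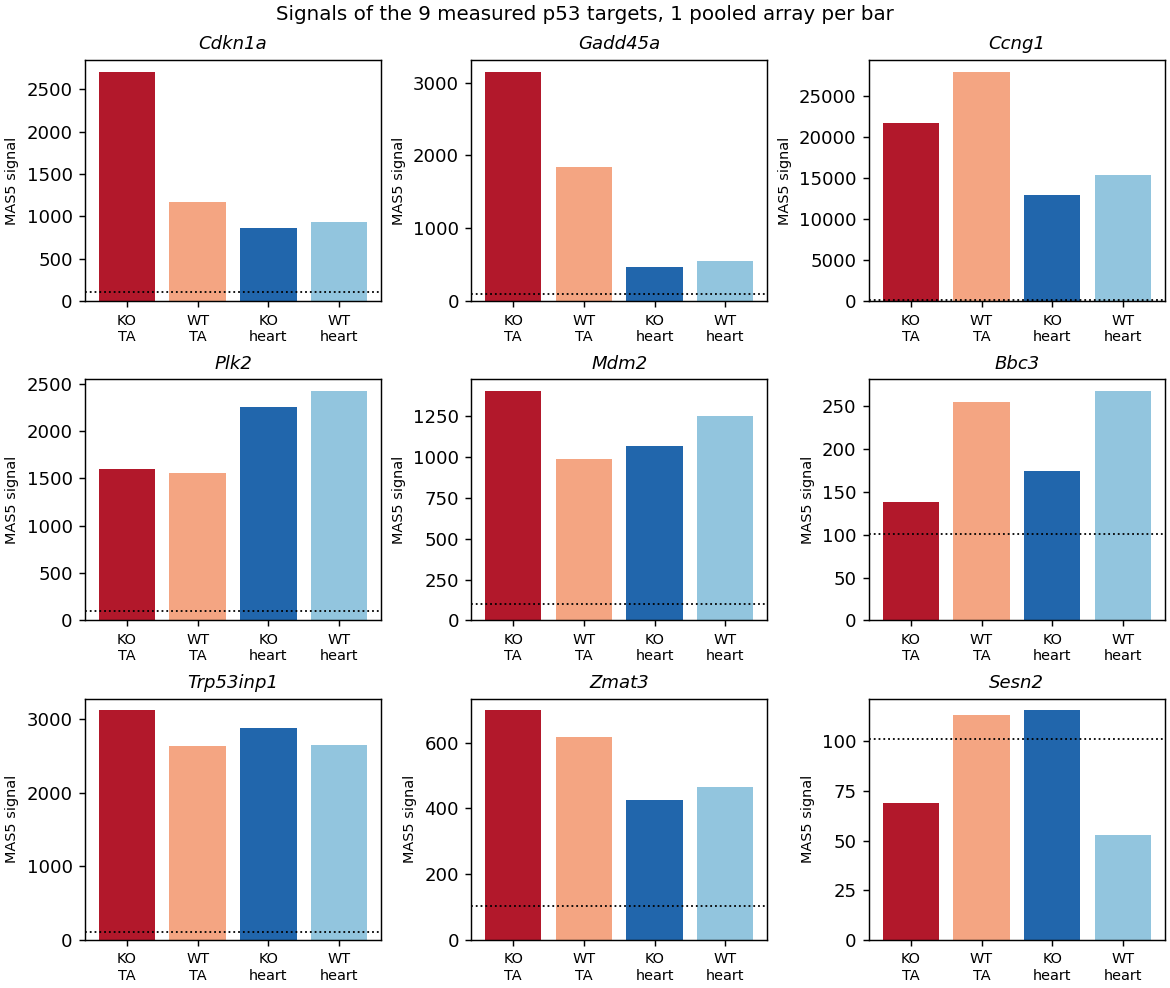
MAS5 signals (linear scale, each panel with its own axis) of the 9 measured genes, 1 bar for each pooled array, with the floor of 101.3 as a dotted line. Cdkn1a and Gadd45a stand highest in knockout TA, Bbc3 is lower in both knockout pools, and Sesn2 lies around the floor.

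Cdkn1a, the gene of the kinase inhibitor p21, had a signal of 2708 in knockout TA and 1167 in wild-type TA, and of 856 in knockout heart and 938 in wild-type heart. The knockout TA pool stood apart from the other 3, which lay close together. Its ratio was 2.32-fold (log2 ratio 1.21), and 0.564% of all measured genes had a ratio as high. A second probe set read 1687 in knockout TA and 579 in wild-type TA, 2.91-fold higher. In heart the knockout was 1.09-fold lower on the first and 1.04-fold lower on the second. The probe sets of Cdkn1a therefore gave the same direction in each tissue, but they share the RNA of the same pools and are not replicates.

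Gadd45a, whose product binds p21 and PCNA and takes part in arrest and DNA repair, followed the same order of pools. Its signal was 3152 in knockout TA and 1834 in wild-type TA, 1.72-fold higher (log2 ratio 0.78), a ratio reached by 1.995% of measured genes. Knockout heart had 460 and wild-type heart 549, 1.19-fold lower. A single probe set reads the gene.

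Ccng1, the gene of cyclin G1, a p53 target that recruits a phosphatase to MDM2, went the other way. Its signal was 21699 in knockout TA and 27978 in wild-type TA, 1.29-fold lower, and 12973 in knockout heart and 15305 in wild-type heart, 1.18-fold lower. Both ratios are under the 1.5-fold limit. All 3 probe sets were lower in both knockouts, by 1.18-fold to 1.33-fold in TA and by 1.18-fold to 1.28-fold in heart. Plk2, a polo-like kinase gene induced by p53 and by growth signals, had 1599 in knockout TA and 1560 in wild-type TA, and 2254 in knockout heart and 2425 in wild-type heart. These values put it within 1.08-fold of the wild type in either tissue.

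Mdm2, the feedback ubiquitin ligase, came close to the limit in TA. Its signal was 1405 in knockout TA and 987 in wild-type TA, 1.42-fold higher, and a second probe set was 1.49-fold higher with 579 against 388. Knockout heart had 1068 and wild-type heart 1254, 1.17-fold lower, while the second probe set read 419 and 362, 1.16-fold higher. The direction of Mdm2 in heart thus depends on the probe set. The third one was under the floor on all arrays.

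Bbc3, the gene of the apoptosis inducer PUMA, was lower in both knockouts. Its signal was 138 in knockout TA and 255 in wild-type TA, 1.85-fold lower (log2 ratio -0.88), and 1.40% of genes had a ratio as low. Knockout heart had 175 and wild-type heart 268, 1.53-fold lower (log2 ratio -0.62), and 3.81% of genes were as low. All 4 signals lay within 3 times the floor, on a single probe set, and the gene was not measured once the floor was set at the 75th percentile.

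Among the other genes of cell death and stress, differences were small. Trp53inp1, a p53 cofactor gene that acts in autophagy and apoptosis, had 3120 in knockout TA and 2642 in wild-type TA, 1.18-fold higher, and 2880 in knockout heart and 2651 in wild-type heart, 1.09-fold higher. Zmat3, an RNA-binding zinc finger gene, had 698 in knockout TA and 617 in wild-type TA, 1.13-fold higher, and 425 in knockout heart and 465 in wild-type heart, 1.09-fold lower. Neither gene approached 1.5-fold. Sesn2, the gene of a leucine sensor that restrains mTORC1, had 69 in knockout TA and 113 in wild-type TA, and 116 in knockout heart and 53 in wild-type heart. With the floor it was at least 1.12-fold lower in knockout TA and at least 1.14-fold higher in knockout heart, and its second probe set was under the floor on all arrays. Without the floor the heart log2 ratio was 1.13, so the array does not resolve this gene.

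**Figure D3:**
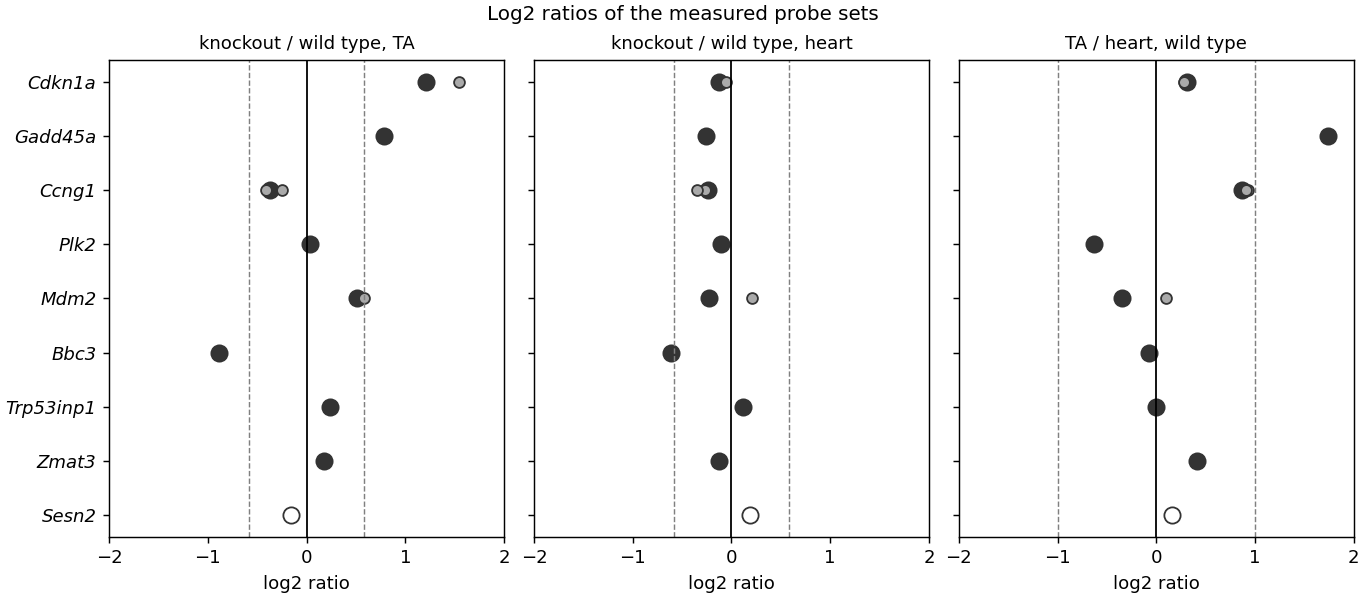
Log2 ratios of every measured probe set of the listed genes for knockout over wild type in TA and in heart and for TA over heart in wild type. Large dark points stand for the gene, small grey points are its other probe sets, open points have 1 signal raised to the floor, and dashed lines mark 1.5-fold or, in the last panel, 2-fold; only Cdkn1a and Gadd45a lie right of the line in TA, and none does in heart.

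Between the tissues, Cdkn1a, Gadd45a and Mdm2 differed most among the 9 genes with signals raised to the floor. The log2 ratio in TA minus that in heart was 1.35 for Cdkn1a, 1.03 for Gadd45a and 0.74 for Mdm2, so 3 of 9 genes passed 1.5-fold upwards and 0 downwards. Over 10802 genes measured in both tissues, 6.44% passed upwards and 5.1% downwards. The second probe set of Mdm2, with log2 ratios of 0.58 in TA and 0.21 in heart, did not pass. Without the floor, Sesn2 had log2 ratios of -0.71 in TA and 1.13 in heart. It then passed downwards and differed more than Cdkn1a, on signals around the floor. The median difference over the 9 genes was 0.14, against 0.0002 over all genes, and the difference between tissues has no test here.

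In wild-type mice 1 of the 9 genes, Gadd45a, was past 2-fold between the tissues (median log2 ratio 0.16, against -0.07 over all genes). Its signal of 1834 in TA against 549 in heart is 3.34-fold higher. Background shares for this comparison were 7.56% past 2-fold upwards and 7.8% downwards in TA. Ccng1 was 1.83-fold higher in TA, and its other probe sets gave 1.90-fold and 1.87-fold. Zmat3 was 1.33-fold and Cdkn1a 1.24-fold higher in TA. Plk2 was 1.55-fold lower in TA and Mdm2 1.27-fold lower, although the second probe set of Mdm2 was 1.07-fold higher. Trp53inp1 and Bbc3 had log2 ratios of -0.0048 and -0.07, and Sesn2 was at least 1.12-fold higher in TA. This comparison uses the same wild-type arrays as those of the knockout, so its values are not independent of them.

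Transcripts of cell division were lower in both knockouts, and this is the deficit that the arrest genes were set beside. Of 37 measured genes of the cell division list, 25 passed 1.5-fold downwards in knockout TA and 1 upwards, at a median log2 ratio of -0.83. The higher one, the replication helicase gene Mcm2 at 1.52-fold, pointed the other way on its second probe set. In knockout heart 33 of 37 were lower and 0 higher, at a median of -1.15. Over all measured genes 4.44% passed downwards and 4.2% upwards in TA, and 4.19% and 2.67% in heart. The list was chosen with earlier results of these data known. In bulk RNA, fewer dividing cells and less of these transcripts per cell cannot be told apart. Bub1, a spindle checkpoint kinase gene, had 134 in knockout TA and 395 in wild-type TA, and 200 in knockout heart and 617 in wild-type heart. Melk, a kinase gene of dividing cells, had 140 in knockout TA and 412 in wild-type TA, and 105 in knockout heart and 380 in wild-type heart. Ccna2, the gene of cyclin A2, which p21 inhibits together with its kinase, was at 508 in knockout TA and 1259 in wild-type TA, and at 698 in knockout heart and 2001 in wild-type heart. Aurkb and Nuf2, genes of a mitotic kinase and a kinetochore protein, were 3.01-fold and 2.72-fold lower in knockout TA. In knockout heart Nuf2 was 3.13-fold lower and Kif2c, a gene of the kinesin family, 3.66-fold, which became a log2 ratio of -0.65 with the median over its probe sets. The deficit was thus present in both tissues, while 2 of the 9 measured p53 targets were 1.5-fold higher in knockout TA and 0 in knockout heart. The log2 ratio in TA minus that in heart had a median of 0.25 over the 37 genes and was above 0 in 30, a difference that was not tested. Over all genes measured in both tissues the median was 0.0002, with 5405 of 10802 above 0. Of the 37 genes, 5 passed 1.5-fold upwards and 0 downwards, against 6.44% and 5.1% over all genes.

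**Figure D4:**
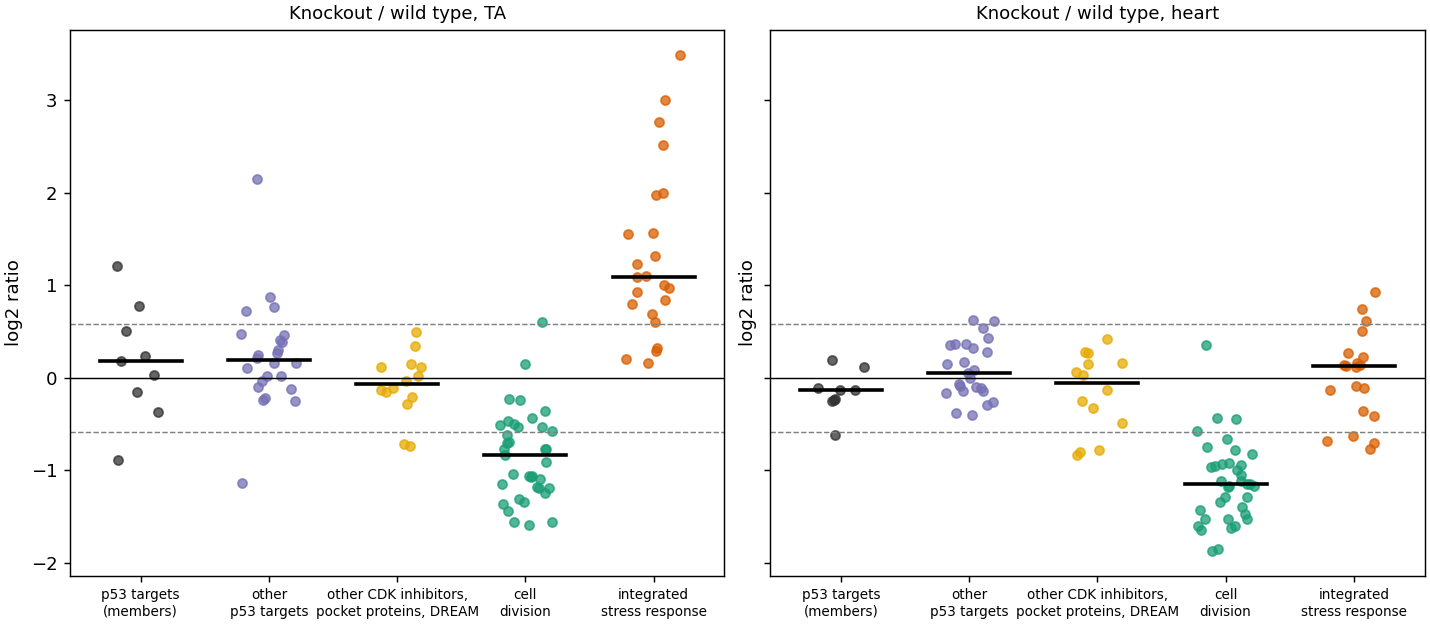
Log2 ratios of knockout over wild type in TA (left) and heart (right), 1 point for each measured gene of 5 lists, with the list's median as a bar and dashed lines at 1.5-fold. Of 37 cell division genes, 35 lie below 0 in TA and 36 in heart, with medians of -0.83 and -1.15, while the medians of the p53 targets are 0.18 and -0.13.

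Further targets of p53 were mixed in TA. Of 24 measured, 4 passed 1.5-fold upwards and 1 downwards (median 0.19), against 4.2% upwards and 4.44% downwards over all genes. The higher count became 2 under a floor at the 75th percentile and 2 under the median over probe sets, as Tigar and Slc19a2 then fell under the limit, and the lower count became 3 under a floor at the 25th percentile or none. Eda2r, a death receptor gene that is also known from wasting muscle, had the largest ratio with 1966 in knockout TA and 442 in wild-type TA, 4.44-fold higher, and 311 in knockout heart against 382 in wild-type heart. Btg2, an antiproliferative gene, was 1.84-fold higher in TA, Tigar, a regulator of glycolysis, 1.70-fold and the thiamine transporter gene Slc19a2 1.65-fold. Steap3, a metalloreductase gene, was 2.19-fold lower with 119 in knockout TA and 261 in wild-type TA. Phlda3, an inhibitor gene of AKT, had 1378 and 993 in knockout and wild-type TA, a log2 ratio of 0.47. In heart 2 of 25 were higher and 0 lower (median 0.05), namely Btg2 at 1.55-fold and Ddit4, an inhibitor gene of mTORC1, at 1.53-fold. Eda2r and Phlda3 had a single measured probe set in TA, and the other probe sets of Btg2, Tigar, Slc19a2 and Steap3 gave the same direction there. Eda2r also belongs to the atrophy list and Ddit4 to the list of stress response genes.

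For the regulators of p53 itself, counts lay near the shares over all genes, and the gene of p53 was not analysed here. The counts of the lists that follow stand against the same shares, 4.2% upwards and 4.44% downwards in TA and 2.67% and 4.19% in heart, and with 0 to 3 genes in a direction they are too small to characterise the inhibitors, G1 genes, paralogs or BCL2 family as groups. In TA 1 of 18 was higher, the phosphatase gene Ppm1d at 1.74-fold, itself a p53 target, and 1 lower, the checkpoint kinase gene Chek1 at 1.51-fold (median 0.07). In heart 1 of 17 was higher, the acetyltransferase gene Ep300 at 1.56-fold, and 1 lower, Chek1 at 1.97-fold (median 0.05). Ppm1d fell under the limit, at log2 ratios of 0.55 and 0.57, under the median over probe sets and under a floor at the 75th percentile. Mdm4, the partner of MDM2, was at 1065 in knockout TA and 969 in wild-type TA, and at 1392 in knockout heart and 1179 in wild-type heart, with its second probe set pointing the other way in TA.

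Beside Cdkn1a, inhibitors of cyclin-dependent kinases were examined together with their partners. Of 14 measured genes of CDK inhibitors, pocket proteins and the DREAM complex, 0 were 1.5-fold higher in TA and 0 in heart, with 2 and 3 lower (medians -0.07 and -0.05). The lower ones were Rbl1, the gene of the pocket protein p107, at 1.67-fold in TA and 1.79-fold in heart, Cdkn2c, the gene of an inhibitor of CDK4 and CDK6, at 1.65-fold and 1.74-fold, and Lin9 of the DREAM core at 1.72-fold in heart. Cdkn1b, the gene of the inhibitor p27, had 3153 in knockout TA and 2903 in wild-type TA, and 3651 in knockout heart and 2737 in wild-type heart, a log2 ratio of 0.42 in heart. Cdkn1c, the gene of the inhibitor p57, had 11918 in knockout TA and 13027 in wild-type TA, and 734 in knockout heart and 611 in wild-type heart. Cdkn2a and Cdkn2b were under the floor on all 4 arrays. Among 11 G1 cyclin and kinase genes, 1 was higher in TA, Myc at 1.58-fold, and 0 lower (median -0.08). The log2 ratio of Myc was 0.32 under a floor at the 75th percentile. In heart 0 were higher and 1 lower, the cyclin D1 gene Ccnd1 at 1.55-fold (median -0.15).

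Close relatives of the listed genes came next. Of 12 such paralogs, 0 were higher and 1 lower, the centriole kinase gene Plk4 at 2.003-fold (median -0.12), and in heart 0 were higher and 2 lower, Plk1 at 2.89-fold and Plk4 at 1.95-fold (median 0.18). Plk1 also belongs to the cell division list, and Cdkn1b and Cdkn1c count among these paralogs too. Gadd45b had 756 in knockout TA and 1020 in wild-type TA, and Gadd45g 476 in knockout TA and 337 in wild-type TA, on either side of their wild types, and 1 of the other 2 probe sets of Gadd45b pointed the other way. Sesn1, whose signal was well above the floor, had 3655 in knockout TA and 3961 in wild-type TA, and 3878 in knockout heart and 3653 in wild-type heart. In the list of BCL2 family and caspase genes, 0 of 20 were higher and 1 lower in TA (median -0.02), the BH3-only gene Hrk at least 1.53-fold. In heart 1 of 19 was higher, Bad at 2.47-fold, and 2 lower, Hrk at 1.68-fold and Bak1 at 1.60-fold (median -0.07). The log2 ratio of Bad was 1.31, but 0.10 without probe sets that can match several transcripts.

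Genes of the integrated stress response, whose factors share targets with p53, were mostly higher in knockout TA. Of 23 measured, 19 passed upwards and 0 downwards (median 1.09), with Trib3 at least 11.2-fold, Asns 8.04-fold, Fgf21 at least 6.78-fold and Mthfd2 5.72-fold higher. In heart 3 of 20 were higher and 4 lower (median 0.12), and the lower count ran from 0 to 4 over the alternatives. The higher ones were Trib3 at 1.91-fold, whose other probe set pointed the opposite way, Cebpb at 1.68-fold and Ddit4. The lower ones were Mthfd2 at 1.70-fold, Slc7a5 at 1.63-fold, Phgdh at 1.61-fold and Psat1 at 1.54-fold. In the list of atrophy and glucocorticoid genes, 5 of 17 were higher and 1 lower in TA (median 0.32), namely Eda2r, the ubiquitin ligase gene Fbxo32 at 3.77-fold, Klf15 at 2.52-fold, Per1 at 1.84-fold and Mt1 at 1.76-fold, with the kinase gene Sgk1 1.68-fold lower. In heart 4 of 17 were higher and 0 lower (median 0.40), namely Foxo4 at 1.93-fold, Per1 at 1.88-fold, Mt2 at 1.63-fold and Mt1 at 1.56-fold. Both lists moved beside Cdkn1a and Gadd45a in TA. In heart, where Cdkn1a and Gadd45a were not higher, the median was 0.40 for the atrophy list and 0.12 for the stress response list. The part of either list in the ratios of Cdkn1a and Gadd45a was not tested.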

How the data were processed

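The values deposited by the authors are MAS5 signals, linear intensities for each probe set, per the submitters' processing notes. No version, scaling target or detection call is given there. The 4 arrays hold 45037 probe sets, of which 34945 have 1 gene symbol in the platform's annotation, 932 several and 9160 none; only the first were used. Per the series' design text, mice of a group were pooled, so there is 1 array per group, no p-value is given, and the number of arrays limits the precision.

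Signals under 101.3 (the median of all signals) were raised to it, and the fold is then written "at least". The probe set with the highest mean signal over 4 arrays stood for a gene. Log2 ratios were computed with Python 3.11.15 (numpy 2.4.6, pandas 2.3.3), checked on arrays with planted ratios. Genes were counted at 1.5-fold between genotypes and 2-fold between tissues, thresholds of size and not of a test. Named were all listed genes, Hhatl, and of each further list the up to 4 genes with the largest ratios past 1.5-fold, or all where 5 or fewer passed; Ccna2, Phlda3, Mdm4, Cdkn1b, Cdkn1c, Cdkn2a, Cdkn2b, Gadd45b, Gadd45g, Sesn1, Phgdh, Psat1, Mt1 in TA, Sgk1, Mcm2 and Xist were added after their values were seen. The genes and lists were chosen with earlier results of these data known. The shares among brighter genes (at least 4 times the floor) were added after seeing the data. Alternatives were other floors (25th or 75th percentile, or none), centring, quantile normalization, other rules for several probe sets, and leaving out probe sets that can match several transcripts.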

Additional observations from a re-analysis of the deposited data

Results flagged for a closer look

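Several genes differed by over 1.5-fold between genotypes in at least 1 tissue and pointed the opposite way in the other. The difference between the tissues was not tested, and each tissue has 1 pool for each genotype. The log2 ratio of knockout over wild type in TA minus that in heart was 1.35 for Cdkn1a (1.21 in TA and -0.13 in heart) and 1.03 for Gadd45a (0.78 and -0.25). Among further p53 targets it was 2.45 for Eda2r (2.15 and -0.30) and 0.73 for Slc19a2, whose log2 ratio in heart was -0.000758. It was -1.54 for the apoptosis gene Bad (-0.24 and 1.31), whose other probe set pointed the other way in TA. Of the stress response genes, Asns had 3.12 (3.01 and -0.11), Mthfd2 3.28 (2.52 and -0.77), Psat1 2.62 (2.001 and -0.62), Slc7a5 2.27 (1.56 and -0.71) and Phgdh 1.29 (0.61 and -0.68). The atrophy list gene Sgk1 had -1.13 (-0.75 and 0.39).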

How the results depend on the processing

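In all 9 alternatives, 2 listed genes were 1.5-fold higher in knockout TA, and the log2 ratio of Cdkn1a ran from 1.17 to 1.38 and that of Gadd45a from 0.76 to 0.79. The median of the list ran from 0.11 to 0.24 in TA and from -0.17 to -0.11 in heart. The count of lower genes in TA, 1 as reported, became 2 under a floor at the 25th percentile or none, since Sesn2 then passed, and 0 with the floor at the 75th percentile. In heart, the higher count of 0 became 1 under the first 2 of these (Sesn2, log2 ratio 1.13), and the lower count of 1 became 0 under the third, where Bbc3 was not measured. Between wild-type tissues the higher count of 1 became 2 with the floor at the 25th percentile or none (Sesn2, log2 ratio 1.09). For cell division, the median ran from -0.95 to -0.51 in TA and from -1.20 to -0.99 in heart. With the floor at the 75th percentile, 8 of its genes were lower in TA and 17 in heart. This floor shrinks the ratios of dim genes, and genes under it on both arrays are no longer measured. These counts are therefore out of fewer than 37 genes. Mcm2, the 1 higher gene in TA, fell under 1.5-fold, leaving 0, with that floor, with quantile normalization over all arrays, with the median over probe sets and without probe sets that can match several transcripts. Its log2 ratio reversed to -0.12 and -0.85 under the last pair. Of 1411 further values (log2 ratios, medians and counts of genes), some added after seeing the data, 1348 stayed within 1.5-fold and 61 moved further. The other 2, those of Mcm2 in TA, were past 1.5-fold as reported and changed sign. Changes of sign in values reported under 1.5-fold were not counted apart. Mcm2 in heart, for example, ran from -0.85 to 0.36. Other named genes also fell under 1.5-fold in an alternative. With the floor at the 75th percentile these were Fgf21, Myc, Nuf2, Per1 and Rbl1 in TA and Bub1 and Psat1 in heart. With the median over probe sets they were Phgdh in TA and Ccnd1, Psat1 and Trib3 in heart. With the probe set brightest on the arrays compared they were Mthfd2 and Phgdh in heart. MAS5 signals near the floor, those of Bbc3 and Sesn2 above all, limit what the arrays can resolve.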
